A study of Mus musculus with 14 samples.

Results

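The tumor necrosis factor (TNF) superfamily was followed here through 10 genes in regulatory T cells (Tregs) of the mouse intestine, 5 encoding ligands (Lta, Ltb, Tnf, Tnfsf8, Tnfsf11) and 5 encoding receptors (Tnfrsf4, Tnfrsf9, Tnfrsf18, Tnfrsf1b, Tnfrsf25). They were chosen by name, and each was found as 1 row in both count tables, which list 53801 and 55487 genes. RNA-seq of 14 sorted Treg libraries addressed what the AP-1 transcription factor JunB controls in Tregs of the Peyer's patches (PP), the lymphoid tissue of the small intestine, and of the colon lamina propria. Each library held between 26274861 and 35508709 counts.

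In Foxp3YFPcre mice, where Cre is made from the Foxp3 gene and so acts in Tregs from their start, CD4+Foxp3(YFP)+ PP Tregs came from 2 HET (JunB F/+) and 2 KO (JunB F/F) males, with an age range of 8 to 12 weeks given for this line. In Foxp3ERT2cre mice carrying Rosa26-tdTomato, mice aged 10 to 12 weeks were gavaged with 8 mg of tamoxifen on days 0, 1 and 3, and Tregs were collected on day 7. Colons of 3 iHET (JunB F/+) and 3 iKO (JunB F/F) mice gave sorted cells with the phenotype TCRb+CD4+Foxp3(EGFP)+tdTomato+, and PP of 2 iHET and 2 iKO mice gave the CD25- cells of that phenotype. Each library of both lines was taken as 1 mouse, although the study's methods count animals for the colon and samples for the PP. In both inducible populations number 1 was male (Foxp3ERT2cre+) and the others female (Foxp3ERT2cre+/+), and iHET mice received tamoxifen as iKO mice did. Controls in both lines carry Cre and 1 floxed JunB allele, so no group has the unmodified gene, and Foxp3-driven Cre of the YFP line can also delete in the germline, against which the study chose its matings.

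Ligands of this superfamily assemble as trimers on the cell surface, or are shed from it, and cluster their receptors. The receptors recruit TRAF adaptors, which activate NF-kB. In T cells the costimulatory receptors OX40 (Tnfrsf4), 4-1BB (Tnfrsf9) and GITR (Tnfrsf18), together with TNFR2 (Tnfrsf1b) and DR3 (Tnfrsf25), are known for promoting survival and expansion, and Tregs carry them at high levels. Lymphotoxin alpha (Lta) and beta (Ltb) are known for building lymphoid tissue such as the PP, and RANKL (Tnfsf11) acts there on the epithelium that covers the follicles.

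The members share positions that their names do not show. Of the 10, 6 lie on chromosome 4 and 3 within 1 stretch of chromosome 17, where Ltb, Tnf and Lta follow one another with gaps of 3060 and 1157 bases (GRCm38). Tnfrsf4 and Tnfrsf18 are neighbors on chromosome 4, 9551 bases apart. The 250 bases before each RefSeq start (GRCm38.p6) were searched for TGANTCA, the core letters bound by AP-1, which read the same way on both strands, and for the kappa B motif on both strands. All 10 members had a window, 12 in total. TGANTCA was found in 1 of the 12, at Tnfrsf9, and in 6.75% of 32851 windows of all genes. The kappa B motif was found in 2 of the 12, at Ltb and at the same Tnfrsf9 window, and in 3.9% of all windows. It did not overlap TGANTCA in that window. The windows of Lta and Tnfsf11 are shown because these genes differed most between KO and HET PP Tregs, and the 30 bases at Tnfrsf9 because this gene differed most between organs. Capitals mark TGANTCA, the first 2 hold no match, and a match is a description of letters only.
Lta, chr17:35205352-35205601, minus strand: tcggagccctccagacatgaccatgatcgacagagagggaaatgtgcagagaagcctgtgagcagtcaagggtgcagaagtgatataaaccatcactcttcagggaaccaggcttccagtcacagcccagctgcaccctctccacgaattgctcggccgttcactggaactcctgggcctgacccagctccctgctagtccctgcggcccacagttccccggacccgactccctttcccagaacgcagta
Tnfsf11, chr14:78308044-78308293, minus strand: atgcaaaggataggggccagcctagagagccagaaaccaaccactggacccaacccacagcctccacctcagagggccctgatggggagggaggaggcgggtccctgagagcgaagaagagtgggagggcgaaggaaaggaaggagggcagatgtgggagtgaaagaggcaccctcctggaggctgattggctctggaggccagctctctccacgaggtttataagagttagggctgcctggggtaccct
Tnfrsf9, chr4:150927969-150927998, plus strand: gaggccctgctcagtTGAGTCAcaggtcct
The Tnfrsf9 match begins 15 bases before the second of the gene's RefSeq starts. GENCODE M21 places these bases in an exon of 1 Tnfrsf9 transcript, in a UTR from 150927918 to 150928085.

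The sorted cells carried the markers of their label. Across all groups Foxp3 lay between 58.0 and 157 CPM (counts scaled to the TMM-normalized library size), Ctla4 between 1321 and 4095 CPM, and Cd8a at 22.6 CPM or less. Markers of other cells were also present. In colonic libraries the epithelial gene Epcam lay between 41.9 and 177 CPM and the myeloid gene Lyz2 between 21.8 and 126 CPM. Foxp3 lay between 77.6 and 157 CPM there. Junb lay between 4061 and 8671 CPM in HET and iHET libraries and between 560 and 1025 CPM in KO and iKO libraries. Il2ra, which encodes CD25, lay between 184 and 238 CPM in CD25- PP libraries and between 566 and 770 CPM in colonic libraries. One library stood apart. CD25- PP iHET replicate 2 was the lowest of 4 libraries for 8 of the 10 members, against 31.2% of all genes tested, and its members summed to 2959 CPM against 4531 to 4624 CPM in the other 3. Its mean correlation with those 3 libraries over all genes, at r = 0.957, lay among theirs (0.951 to 0.961). The dip was not particular to these genes, since the sums of TRAF adaptors and related signaling genes (4368 against 7093 to 7843 CPM), of Treg genes (4509.7 against 5442 to 5754 CPM) and of Tfr genes (1709 against 2285 to 2390 CPM) were also lowest there. Most of the gap in the adaptor sum lay in Tnfaip3, at 2763 against 5016 to 5752 CPM. Traf6, Tradd, Fadd, Ripk1 and Casp8 were not lowest in that library.

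Per length, 4 of the receptors and Ltb were the most abundant members, and Tnfrsf25 was lower. In PP HET Tregs Tnfrsf4 led with 2658 ± 98.7 TPM (counts scaled by exon length to a common total per library; SD, n = 2), followed by Tnfrsf1b with 1876 ± 96.4, Ltb with 1817 ± 161, Tnfrsf9 with 1228 ± 50.5 and Tnfrsf18 with 1173 ± 108 TPM. Tnfrsf1b and Ltb lay within their spread of each other, as did Tnfrsf9 and Tnfrsf18. The other members were lower, with 282 ± 0.559 TPM for Tnfsf8, 205 ± 14.2 for Tnfsf11, 166 ± 8.44 for Tnfrsf25, 89.7 ± 10.3 for Lta and 83.8 ± 12.3 for Tnf, the last pair within their spread. The same 5 genes were the 5 highest in every group, but their order changed. Tnfrsf9 stood second in colonic iHET Tregs with 1983 ± 401 TPM (n = 3), while Ltb was the lowest of the 5 there with 1211 ± 220.5 TPM. In CD25- PP iHET Tregs Ltb stood first with 1485 ± 251 TPM (n = 2), within its spread of Tnfrsf4 with 1329 ± 457 TPM. Lta and Tnf were the 2 lowest members in every group. Exon lengths came from GENCODE M21, so TPM compare genes only as well as these lengths do.

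**Figure D1:**
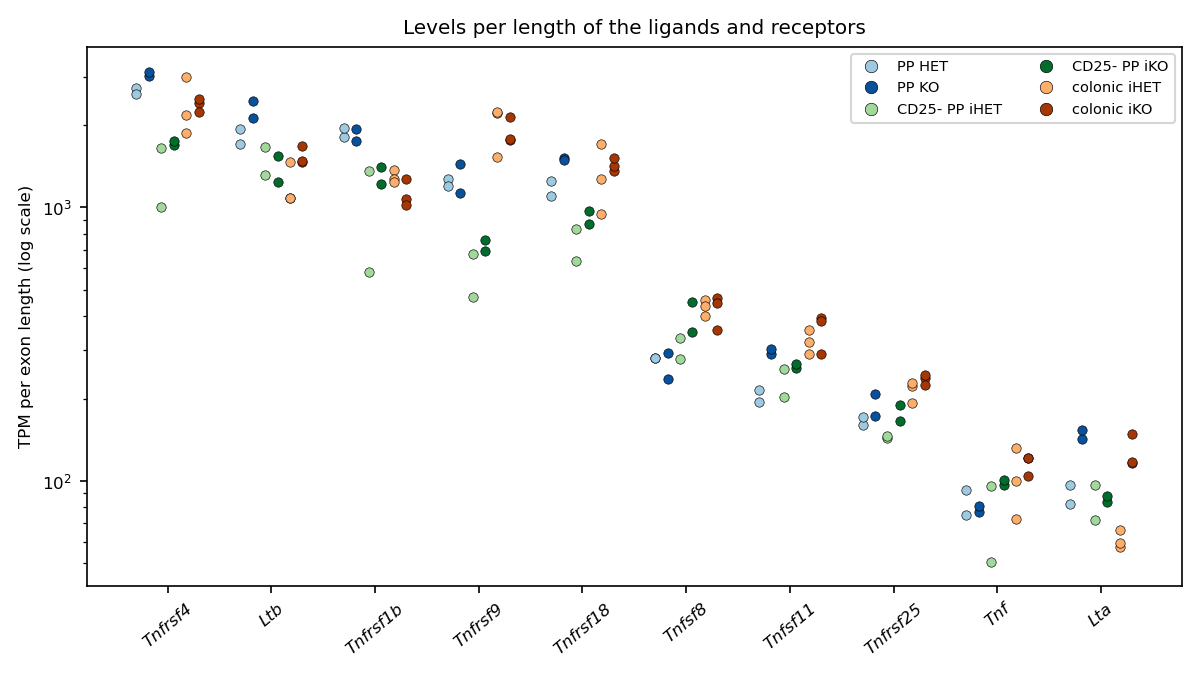
TPM, computed per exon length, on a log axis, with 1 point per library and a color per group. Tnfrsf4, Ltb, Tnfrsf1b, Tnfrsf9 and Tnfrsf18 sit above the other 5 members, and CD25- PP iHET replicate 2 is the low point of Tnfrsf1b, Tnfrsf4 and Tnfrsf9.

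To ask which members depend on JunB, KO and HET PP Tregs were compared first. Lta and Tnfsf11 rose in KO PP Tregs, by 1.67-fold and 1.48-fold, and the other 8 members did not pass the test. The 2 members called are both ligands and both higher, while 0.990% of the 12224 genes tested were called higher and 3.35% were called in either direction at a Benjamini-Hochberg FDR of 0.05 in edgeR's quasi-likelihood test. The median log2 fold change was 0.23 over the 10 members and 0.00 over all genes.

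Lta (ENSMUSG00000024402.5, chromosome 17 from 35203165 to 35205351) had 36.7 and 32.4 CPM in the HET libraries and 56.4 and 59.9 CPM in the KO libraries. The groups did not overlap. Its log2 fold change was 0.74 with a standard error of 0.113 (edgeR adjusted p = 0.0148). Tnfsf11 (ENSMUSG00000022015.8, chromosome 14 from 78277445 to 78308043) had 131 and 123 CPM in HET libraries against 187 and 192 CPM in KO, again without overlap. Its log2 fold change was 0.56 with a standard error of 0.0766 (adjusted p = 0.0114). Both calls were lost when either HET library was left out, with 1 library then standing for HET. This loss was general, since the calls over all genes fell from 409 to 36 without HET replicate 1 and to 55 without HET replicate 2. Lta had adjusted p = 0.1 without HET replicate 1 and 0.129 without HET replicate 2, and Tnfsf11 had 0.0862 and 0.0942. The log2 fold changes then lay between 0.65 and 0.83 for Lta and between 0.52 and 0.60 for Tnfsf11.

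Ltb (ENSMUSG00000024399.5, chromosome 17 from 35194439 to 35196320), whose product anchors lymphotoxin alpha at the membrane, had 802 and 733 CPM in HET libraries against 1063 and 908 CPM in KO. These values did not overlap, but the log2 fold change of 0.35 did not pass the test (adjusted p = 0.141). Between Ltb and Lta on the same chromosome, Tnf (ENSMUSG00000024401.14, from 35199381 to 35202007) had 33.7 and 43.0 CPM in HET libraries against 36.3 and 37.4 CPM in KO, so KO lay inside the range of HET. Tnfsf8 (ENSMUSG00000028362.2, chromosome 4 from 63831308 to 63861347), the CD30 ligand, had 293 and 305 CPM in HET libraries against 258 and 315 CPM in KO. The 95% interval of the log2 fold change was -0.38 to 0.25 for Tnf and -0.31 to 0.17 for Tnfsf8.

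Among the receptors, Tnfrsf18 (ENSMUSG00000041954.18, chromosome 4 from 156026164 to 156028895) came closest to the threshold. It had 521 and 474 CPM in HET libraries against 663 and 639 CPM in KO, and its log2 fold change was 0.38 with a standard error of 0.0863 (adjusted p = 0.0602). The exact test of edgeR, which the study used for the PP, called it (adjusted p = 0.0134). Of its 1524 exon bases, 414 also belong to Gm16008 on the opposite strand, and the counting was not stated to use strand, so reads of the pair cannot be told apart there. Gm16008 itself was listed with 12.8 to 13.4 CPM in HET and 16.8 to 18.8 CPM in KO libraries. Tnfrsf4 (ENSMUSG00000029075.6, chromosome 4 from 156013843 to 156016612) had 1019.6 and 1003 CPM in HET libraries against 1184 and 1208 CPM in KO, which did not overlap (log2 fold change 0.24, adjusted p = 0.237). The values of Tnfrsf25 (ENSMUSG00000024793.14, chromosome 4 from 152115934 to 152120119) were 99.7 and 111 CPM in HET libraries against 112 and 133 CPM in KO (log2 fold change 0.21, adjusted p = 0.435).

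The remaining receptors overlapped between genotypes. Tnfrsf9 (ENSMUSG00000028965.13, chromosome 4 from 150914562 to 150946102) had 942 and 921 CPM in HET libraries against 882 and 1108 CPM in KO. Tnfrsf1b (ENSMUSG00000028599.10, chromosome 4 from 145213463 to 145246870) had 1890.2 and 2107 CPM in HET libraries against 1907 and 2082 CPM in KO. The 95% interval of its log2 fold change was -0.25 to 0.23. In all, both KO libraries exceeded both HET libraries for 6 of 10 members, against 22.7% of all genes tested, and lay below both for 0, against 21%.

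Other transcripts moved in the same comparison, in which 3.35% of all genes tested were called. Of 10 genes that mark follicular regulatory T (Tfr) cells, 8 fell in KO, and their summed level was 2188 to 2407 CPM in HET and 1283 to 1322 CPM in KO libraries. Of 10 epithelial genes, 8 fell, from sums of 150.1 to 189.8 CPM to sums of 65.0 to 73.4 CPM. Of 10 B cell genes, 1 fell, with sums of 221 to 254 CPM in HET and 121 to 186 CPM in KO libraries. No epithelial or B cell gene was at 0 in all libraries of a group. Of 9 innate lymphoid genes tested, 3 were called higher, Lta and Tnfsf11 among them, and 1 lower. Innate lymphoid sums were 993 to 1101 CPM in HET and 1165 to 1240 CPM in KO libraries, without overlap. Of 8 Treg genes, 2 were called higher, Foxp3 (from a mean of 86.0 to 123 CPM) and Il2ra (from 468 to 782 CPM). Log2 fold changes were below 0 for 3 of the 8, Ikzf2 (-0.11), Cd3e (-0.066) and Icos (-0.024). The part of these differences in those of Lta and Tnfsf11 was not tested. From RNA of sorted pools alone, fewer cells of a type and less RNA per cell cannot be told apart. By flow cytometry the study found Tfr cells almost absent from the PP of KO mice, and a marked drop in CD25- Tregs.

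In CD25- PP Tregs, inducible deletion of Junb gave no call. None of the 10 members passed edgeR's quasi-likelihood test, as for the 17079 genes tested in this comparison, of which 0% were called and 618 had an unadjusted p under 0.05. Junb itself was not called, at 4061 to 5529 CPM in iHET and 887 CPM in iKO libraries. The lowest adjusted p of any gene in this test was 0.094. A missing call here therefore does not show that a member was unchanged. The log2 fold changes of 9 members were above 0, from 0.03 for Lta to 0.42 for Tnf, and Ltb was at -0.10. The median was 0.32 over the members and -0.00 over all genes, and that of the members was 0.059 without iHET replicate 2. Of the 10 members, 4 were higher in both iKO than in both iHET libraries, against 16.1% of all genes tested. These were Tnfsf8, Tnfrsf9, Tnfrsf18 and Tnfrsf25, and 0 were lower in both, against 15.5%. Summed markers of some other kinds also lay higher in both iKO libraries, though 0 of these genes were called. The sums were 15584 to 18471 CPM against 13020.0 to 14770.2 CPM for genes induced by dissociation, 206 to 237 CPM against 161 to 201 CPM for myeloid, 113 to 141 CPM against 103 to 105 CPM for B cell, 311 to 339.6 CPM against 254 to 305 CPM for plasma cell and 104 to 128 CPM against 96.7 to 99.2 CPM for cytotoxic genes. Epithelial sums overlapped, at 166 to 337 CPM in iHET and 125 to 178 CPM in iKO libraries. So did innate lymphoid sums, at 781 to 968 CPM in iHET and 929 to 1024 CPM in iKO libraries. The part of all these markers in the members' values was not tested.

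CD25- PP iHET replicate 2 moved several of these values. Tnfrsf1b had 1570.4 and 630.3 CPM in iHET and 1592 and 1352 CPM in iKO libraries, and Tnfrsf4 had 683 and 389 CPM in iHET and 682 and 696 CPM in iKO libraries. For both genes iHET replicate 2 lay well below the other 3 libraries. Without it, the log2 fold change of Tnfrsf1b moved from 0.42 to -0.09 and that of Tnfrsf4 from 0.36 to 0.02. Without iHET replicate 1 in its place, Tnfrsf1b stood at 1.19 and was called (adjusted p = 0.0253). Tnf had 47.7 and 23.5 CPM in iHET and 47.2 and 48.3 CPM in iKO libraries, and its log2 fold change moved from 0.42 to 0.01 without iHET replicate 2. Most other members were also lower without it, Tnfrsf9 moving from 0.33 to 0.07, Tnfrsf18 from 0.31 to 0.10, Tnfsf8 from 0.38 to 0.23, and Tnfsf11 from 0.19 to 0.0034 on the log2 scale, while Tnfrsf25 stood at 0.29 with it and 0.27 without it. Lta moved the other way, from 0.03 to 0.23, and Ltb from -0.10 to 0.051.

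Lta was not lowest in that library. It had 30.1 and 37.8 CPM in iHET and 34.5 and 35.5 CPM in iKO libraries, so iKO lay inside the range of iHET. Its log2 fold change was 0.03 with a 95% interval of -0.40 to 0.47. The values of Tnfsf11 were 173 and 128 CPM in iHET and 172 and 174 CPM in iKO libraries (95% interval -0.19 to 0.58). Ltb had 600.1 and 715 CPM in iHET and 558 and 678 CPM in iKO libraries. For Tnfrsf18 the values were 386 and 275 CPM against 393 and 429 CPM, for Tnfrsf9 558 and 363 CPM against 560.0 and 602 CPM, for Tnfrsf25 99.1 and 94.1 CPM against 128 and 110.0 CPM, and for Tnfsf8 384 and 302 CPM against 396 and 501 CPM.

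Colonic Tregs showed the largest genotype difference of any member, again in Lta, but it did not pass the quasi-likelihood test. None of the members was called, and of 16313 genes tested 1 was, Junb itself (0.00613%), with 632 at an unadjusted p under 0.05. Lta had 28.6, 26.6 and 29.6 CPM in the iHET libraries and 66.7, 54.1 and 52.6 CPM in the iKO libraries. The lowest iKO library lay well above the highest iHET library. The log2 fold change was 1.03 with a standard error of 0.135 (2.05-fold, 95% interval 0.70 to 1.37, unadjusted p = 0.000403, adjusted p = 0.947). Within the replicate numbers, which were taken to stand for the cages, the log2 ratios were 1.22, 1.02 and 0.83.

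The call of Lta in the colon depended on the test. The likelihood ratio test of edgeR, which the study used for the colon, called 25 genes, and Lta was among them (adjusted p = 0.000483). DESeq2's Wald test called 50 genes including Lta (adjusted p = 3.16e-06), and edgeR without a filter on low counts called 24 including Lta (adjusted p = 0.00639). Under all 15 alternatives the log2 fold change stayed between 0.95 and 1.12, also with any 1 library left out. Other genes differed alongside Lta without a call in the quasi-likelihood test. Of 9 Tfr genes tested, 3 were lower in all iKO libraries, Tox2 (log2 fold change -0.87, unadjusted p = 0.00125), Il1r2 (-0.82, unadjusted p = 0.0313) and Sostdc1 (-2.27, unadjusted p = 0.126), and these were singled out after their values were seen. The Tfr sum was 1449 to 1994 CPM in iHET and 1354 to 1510.1 CPM in iKO libraries. The sum of Treg genes was 6824 to 7458 CPM in iHET and 5884 to 6554 CPM in iKO libraries, without overlap. Among these, Foxp3 stood at -0.35 and Icos at -0.37 on the log2 scale, while Il2ra stood at 0.11 and Ikzf4 at 0.20. The part of the Tfr and Treg genes in the difference of Lta was not tested. The epithelial sum ranged from 273 to 904 CPM in iHET and from 176 to 1485 CPM in iKO libraries.

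Of 10 members, 1 was higher in all iKO than in all iHET libraries, Lta, against 3.68% of all genes tested, and 1 was lower, Tnfrsf1b, against 4.60%. Tnfrsf1b had 1629.5, 1630.3 and 1698 CPM in iHET and 1567, 1372 and 1264 CPM in iKO libraries (log2 fold change -0.24, adjusted p = 0.947). It was lower in 3 of 3 pairs of the same number, by values from -0.43 to -0.06. The partner of Lta, Ltb, had 513, 551 and 798 CPM in iHET and 723, 855 and 729 CPM in iKO libraries, which overlap because of iHET replicate 3 (log2 fold change 0.34, 95% interval -0.09 to 0.77). Tnf had 51.2, 72.7 and 42.7 CPM in iHET and 64.6, 66.8 and 55.7 CPM in iKO libraries.

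Tnfsf11, which rose in KO PP Tregs, had 248, 242 and 235 CPM in iHET and 287, 288 and 212 CPM in iKO colonic libraries. The iKO libraries lay on both sides of the iHET libraries, with a log2 fold change of 0.11 and a 95% interval of -0.18 to 0.41. The difference between KO and iKO mice was not tested, since the lines were counted and normalized apart. Tnfsf8, Tnfrsf4, Tnfrsf9, Tnfrsf18 and Tnfrsf25 had log2 fold changes between -0.07 and 0.15, all with overlapping groups. Their values in each colonic library are given with the organ difference.

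**Figure D2:**
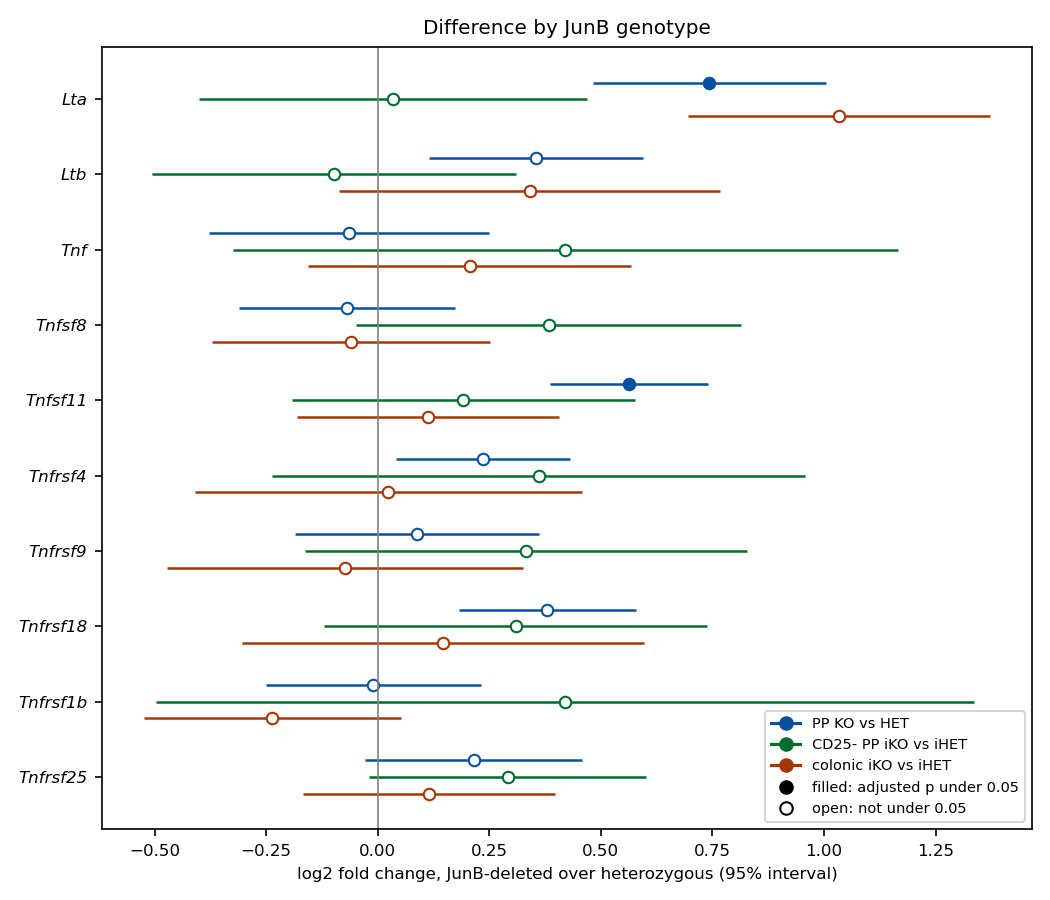
Log2 fold change of JunB-deleted over heterozygous Tregs for each member, with 95% intervals, for PP (blue), CD25- PP (green) and colonic Tregs (brown). Filled points passed an adjusted p of 0.05, which are Lta and Tnfsf11 in PP Tregs, and the colonic interval of Lta, from 0.70 to 1.37, lies above 0 without passing.

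Whether the genotype difference depends on the organ was asked with an interaction term over the 10 libraries of the inducible line. None of the 10 members was called by edgeR's quasi-likelihood test, as for all 18626 genes (0% called, 622 at an unadjusted p under 0.05). For Lta the colonic difference exceeded that of CD25- PP Tregs by 1.00 on the log2 scale (standard error 0.228, 95% interval 0.49 to 1.51, unadjusted p = 0.00137, adjusted p = 1). Across the alternatives its adjusted p ranged from 0.0984 to 1. Of the other 9 members, Tnfsf8 had the lowest unadjusted p in this test, 0.0979, at -0.43 on the log2 scale.

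Between the populations of the inducible line, colonic Tregs held more of 6 members than CD25- PP Tregs, averaged over genotypes. Tnfrsf9, Tnfrsf18, Tnfrsf4, Tnfrsf25, Tnfsf11 and Tnfsf8 rose, none of the 10 members fell, and 17.3% of the 18626 genes tested were called, 10% higher (1870 genes) and the rest lower. The median log2 fold change was 0.55 over the members, 0.43 without CD25- PP iHET replicate 2, and 0.00 over all genes. The gate differed between these organs, since only PP cells were restricted to CD25-, and the colon was digested with Dispase in addition, so organ, gate and digestion cannot be told apart. Males made up a larger share of the CD25- PP than of the colonic libraries. Sex was not in the model, and its part was not tested.

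Tnfrsf9 differed most. It had 558 and 363 CPM in iHET and 560.0 and 602 CPM in iKO CD25- PP libraries, and 1292, 2011 and 2177 CPM in iHET and 1558, 1948 and 1572 CPM in iKO colonic libraries. The groups lay far apart, with every colonic library above every CD25- PP library. The log2 fold change was 1.74 with a standard error of 0.177 (3.33-fold, adjusted p = 0.000349). It was called under all 19 alternatives, with iHET libraries alone (1.96) and iKO libraries alone (1.5).

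Tnfrsf18 and its neighbor Tnfrsf4 were higher in every colonic than in every CD25- PP library. Tnfrsf18 reached 450.1, 647 and 936 CPM in iHET and 672, 721 and 749 CPM in iKO colonic libraries, while CD25- PP libraries ended at 429 CPM. Its log2 fold change was 0.89 with a standard error of 0.191 (1.85-fold, adjusted p = 0.0122). Gm16008, which shares exon bases with it, was listed with 5.07 to 10.6 CPM in CD25- PP and 12.9 to 17.3 CPM in colonic libraries, and its part in the difference was not tested. Tnfrsf4 reached 793, 992 and 1469.9 CPM in iHET and 1065, 1019.6 and 1099 CPM in iKO colonic libraries, while CD25- PP libraries ended at 696 CPM. Its log2 fold change was 0.79 with a standard error of 0.195 (1.73-fold, adjusted p = 0.0215). Tnfrsf25, which encodes a receptor with a death domain, reached 137, 169 and 186 CPM in iHET and 175, 172 and 179.9 CPM in iKO colonic libraries. Its CD25- PP libraries ended at 128 CPM, and the log2 fold change was 0.63 with a standard error of 0.103 (1.55-fold, adjusted p = 0.00333).

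Of the ligands, Tnfsf11 and Tnfsf8 were called. Tnfsf11 was at 128 to 174 CPM in CD25- PP and at 212 to 288 CPM in colonic libraries, without overlap (log2 fold change 0.61, standard error 0.111, adjusted p = 0.00585). Tnfsf8 had 545, 555 and 549 CPM in iHET and 441, 594 and 552 CPM in iKO colonic libraries. One colonic iKO library lay below the highest CD25- PP library of 501 CPM (log2 fold change 0.43, standard error 0.120, adjusted p = 0.0358). Tnf (0.48, adjusted p = 0.123), Tnfrsf1b (0.23, 0.464), Lta (0.20, 0.263) and Ltb (0.08, 0.724) did not pass the test, each value being a log2 fold change followed by an adjusted p.

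Leaving out single CD25- PP libraries changed these calls. Without iHET replicate 2, 3 members remained called (Tnfsf11, Tnfrsf9 and Tnfrsf25), while 1581 of all genes were called in place of 3227. Tnfrsf18 then stood at 0.78 (adjusted p = 0.061), Tnfrsf4 at 0.62 (0.0811) and Tnfsf8 at 0.35 (0.141), all log2 fold changes. The same 3 members were the ones called without iKO replicate 1, with 2075 of all genes. With iHET libraries alone, 1 member was called (Tnfrsf9, with 430 of all genes), and with iKO libraries alone 5 were (1267 of all genes), among them Lta, which stood at 0.68 in iKO (adjusted p = 0.038) and at -0.30 in iHET libraries (adjusted p = 0.443).

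**Figure D3:**
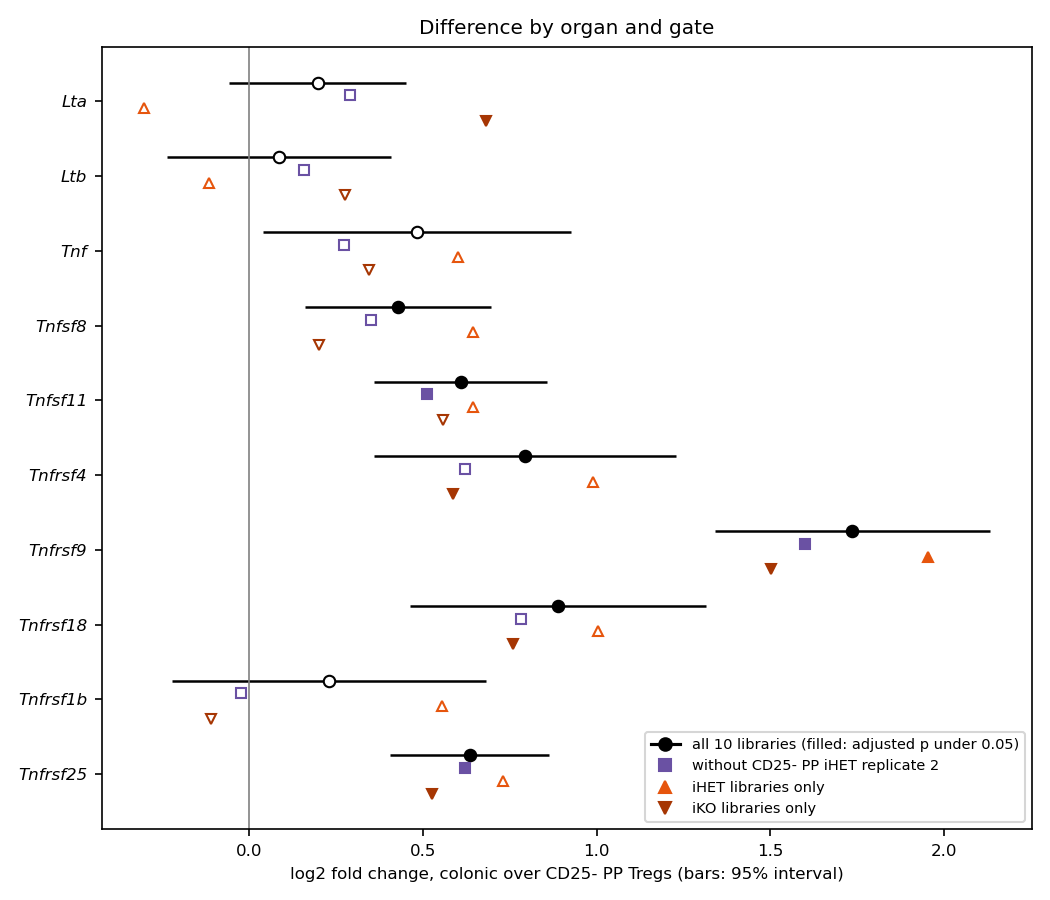
Log2 fold change of colonic over CD25- PP Tregs for each member over all 10 libraries (black, with 95% intervals), without CD25- PP iHET replicate 2 (squares), and in iHET or iKO libraries alone (triangles). Filled symbols passed an adjusted p of 0.05, and Tnfrsf9 lies between 1.5 and 1.96 under each of them.

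The members that moved between organs varied together to different degrees over the 10 libraries of the inducible line. Pearson's r of log2 CPM lay between 0.91 and 0.97 for the 6 pairs among Tnfrsf4, Tnfrsf9, Tnfrsf18 and Tnfrsf25, with Tnfrsf4 and Tnfrsf18 at 0.97. It was lower, between 0.76 and 0.91, for the 9 pairs that hold Tnfsf8 or Tnfsf11. For Lta or Ltb with the other 8 members it lay between -0.29 and 0.46, and Lta with Ltb stood at 0.62. These values are a description, since the 10 points fall into 2 organs that also differ in gate. Among 9469 genes with a mean of at least 10 CPM, the pattern of Lta was most like those of Trmt1 (r = 0.87) and Dph6 (0.86), and that of Ltb most like those of Phf5a and Ppib (0.94 and 0.93). Tnf was nearest to Errfi1 and Bsdc1 (0.96 and 0.94), Tnfsf8 to Kcnk5 and Tmbim1 (0.97 and 0.96), and Tnfsf11 to Tmem248 and Birc2 (0.97 and 0.96). For the receptors the nearest genes were 1810021B22Rik and Ccrl2 for Tnfrsf4 (both 0.99), Efcab6 and Slc15a3 for Tnfrsf9 (1.00 each after rounding), Gm5530 and H2afz for Tnfrsf18 (1.00 and 0.99), Slc3a2 and Rgs9 for Tnfrsf1b (0.99 and 0.94), and Hsd17b7 and Dcxr for Tnfrsf25 (both 0.98).

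**Figure D4:**
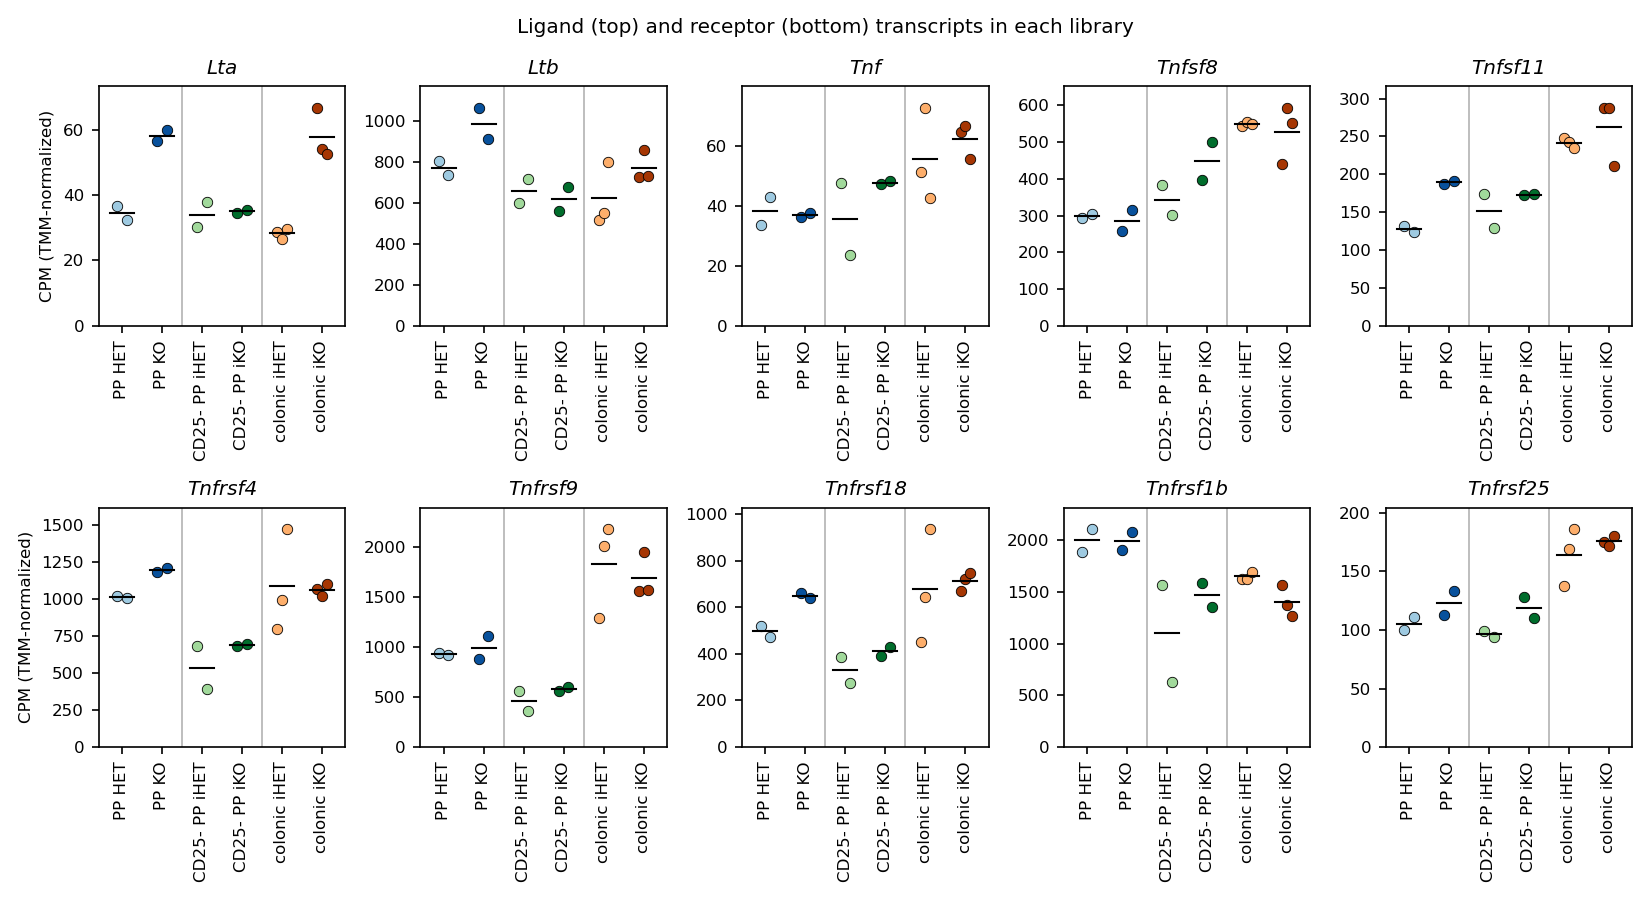
TMM-normalized CPM of the 5 ligands (top) and 5 receptors (bottom) in each of the 14 libraries, with a point per library and a line at each group's mean. Lta is higher in KO and colonic iKO libraries than in their controls but not in CD25- PP iKO libraries, and Tnfrsf9 is higher in every colonic than in every CD25- PP library.

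The rest of the family and its adaptors were followed through 51 further genes, 13 ligands, 23 receptors and 15 adaptors or signaling genes. In PP Tregs 40 of them were tested, of which 1 was called higher and 1 lower in KO. Of all genes tested there, 3.35% were called in either direction and 0.990% higher. Birc2, which encodes the ubiquitin ligase cIAP1 that binds TRAF2, rose from a mean of 207 to 286 CPM (log2 fold change 0.46, adjusted p = 0.0289). Tnfsf13b, which encodes the B cell survival factor BAFF, fell from a mean of 6.17 to 2.13 CPM (log2 fold change -1.52, adjusted p = 0.0348). The median log2 fold change over these 40 genes was 0.02. In CD25- PP and in colonic Tregs, 0 of 43 passed the quasi-likelihood test between genotypes. Unadjusted p was under 0.05 for 3 and 4 of the 43, against 3.62% and 3.87% of all genes tested.

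Between the organs, 17 of 44 of these genes were called, 11 higher and 6 lower in colonic Tregs, at a median of 0.17 on the log2 scale. Without CD25- PP iHET replicate 2, 14 were called, 9 higher and 5 lower. The 6 with the lowest p-values are 3 receptors and 3 TRAF adaptors. Cd27, a costimulatory receptor of the lymphocytes, fell from a mean of 327 to 160 CPM (log2 fold change -1.06, adjusted p = 0.000349). Tnfrsf11a, which encodes RANK, the receptor of the Tnfsf11 product, rose from a mean of 2.08 to 23.6 CPM (log2 fold change 3.44, adjusted p = 0.00261). Its colonic libraries spread from 9.84 to 39.2 CPM in iHET and from 9.69 to 37.2 CPM in iKO mice. The cells that made this transcript were not tested. Cd40, best known from antigen presenting cells, rose from a mean of 1.51 to 5.64 CPM, with overlapping libraries (log2 fold change 2.25, adjusted p = 0.00265). Of the adaptors, Traf1 rose from a mean of 558 to 1021 CPM (log2 fold change 0.85, adjusted p = 0.00196) and Traf6 from 75.4 to 122 CPM (0.66, adjusted p = 0.00114). Traf5 fell from 95.5 to 61.3 CPM (-0.67, adjusted p = 0.0022).

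Markers of other cells and of tissue handling moved between the organs as well. Of 12 early response genes that cell dissociation induces, 8 were called higher and 1 lower in colonic Tregs, and their sum was 18127 to 28859 CPM there against 13020 to 18471 CPM in CD25- PP libraries. Of 9 myeloid genes tested, 4 were higher and 1 lower, with sums of 117 to 331 CPM in the colon and 161 to 237 CPM in the PP. Of 10 epithelial genes, 5 were higher, with sums of 176 to 1485 CPM against 125 to 337 CPM. Of 9 innate lymphoid genes tested, 8 were higher, a list that holds Tnfsf11 and Lta, with sums of 1549 to 2243 CPM against 781 to 1024 CPM, while Ncr1 stayed at 0.269 CPM or less. Of 10 Tfr genes, 8 were lower. Treg gene sums were 5884 to 7458 CPM in the colon and 4510 to 5754 CPM in CD25- PP libraries. Of the Treg genes, Foxp3, Ctla4 and Il2ra were called higher and Ikzf2, Ikzf4 and Cd3e lower. Plasma cell sums were 468 to 618 CPM against 254 to 340 CPM. The part of all these genes in the differences of the members was not tested.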

How the data were processed

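RNA-seq gene counts of 14 sorted Treg libraries were used. The authors deposited raw counts per gene, made after Trim Galore, STAR alignment to mm10 and featureCounts with default settings (tools and build per the labels and the study's methods), in 1 table for Foxp3YFPcre mice and 1 for the inducible line. The tables were tested separately. Gene positions, exon lengths and TPM came from GENCODE M21 on GRCm38, whose IDs matched 53706 of 53801 and 55394 of 55487 rows. The full sort gate of the Foxp3YFPcre cells is not reported here.

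Genes with at least 1 CPM in as many libraries as the smallest group were TMM-normalized and tested with edgeR 4.0.16 (R 4.3.3) by the quasi-likelihood test, prior count 1, at a Benjamini-Hochberg FDR of 0.05 over all genes tested. Standard errors are the log2 fold change divided by the root of F, and intervals are 95%. PP and CD25- PP genotypes were compared in 4 libraries each. The colonic model held the replicate number as a term, standing for the cage, since the study housed 1 iHET with 1 iKO mouse, although the labels do not equate number and cage. Same-numbered colonic libraries deviated together with r = 0.14, 0.22 and -0.02. Organ and interaction contrasts used the 10 inducible libraries without a block. In the inducible line number 1 was male and the others female, so the number also stands for sex. The models without the number hold no term for sex. The labels name separate libraries, each taken here as 1 mouse. The study's methods count animals for the colon but samples for both PP sets. They do not say whether colonic and CD25- PP libraries share mice, and the organ and interaction contrasts treat them as separate.

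Totals of 26274861 to 35508709 counts make counting error small for the members, so precision is set by 2 or 3 libraries a group. Alternatives were other normalizations, filters, prior counts, the exact and likelihood ratio tests, DESeq2 1.42.0, the replicate block, and leaving out each library. The medians, and the count of other family genes, without CD25- PP iHET replicate 2 were added after seeing the data. The scripts were tested on simulated data. All 10 members are named. Other family genes are named where called (the 6 lowest p where more), as are the 2 genes most correlated with each member over the inducible libraries. The members and lists were chosen with earlier results of these data known.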

Additional observations from a re-analysis of the deposited data

How the results depend on the processing

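In PP Tregs the count of members called moved from 2 to 5 with DESeq2 (696 of all genes in place of 409), to 4 without a filter (1305 genes) and to 4 with the replicate block (1015 genes), which added Ltb and Tnfrsf18, and it ranged from 0 to 2 with 1 library left out. The exact test called 689 genes. In CD25- PP Tregs it ranged from 0 to 1 with 1 library left out, and DESeq2, the exact test and no filter called 35, 43 and 232 genes but 0 members. In the colon it moved from 0 to 1 with DESeq2, without a filter and with the likelihood ratio test, each time Lta, and was 0 with each library left out and with no replicate block. Between the organs it moved from 6 (3227 of all genes) to 1 in iHET libraries alone (430 genes), was 4 with the replicate block (2362 genes), and ranged from 3 (1581 genes without CD25- PP iHET replicate 2, 2075 without CD25- PP iKO replicate 1) to 8 (2183 genes without CD25- PP iHET replicate 1) with 1 library left out. For the interaction it was 0 under all 17 alternatives. The numbers were not shown to pair the samples (r = 0.098 in PP and 0.062 in CD25- PP Tregs, and -0.02 for 1 of 3 colonic pairs), and the block changed no other genotype call of a member.

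Some log2 fold changes changed sign, and no value of the changed sign passed the threshold. Tnfrsf4 in the colon stood at -0.026 with no replicate block and at -0.021 with 10 libraries in 1 fit. Between the organs Ltb stood at -0.014 with the replicate block and at -0.12 in iHET libraries, Lta at -0.30 in iHET and Tnfrsf1b at -0.11 in iKO libraries. With 1 library left out, the PP ranges were -0.24 to 0.12 for Tnf, -0.091 to 0.068 for Tnfrsf1b, -0.23 to 0.071 for Tnfsf8 and -0.10 to 0.25 for Tnfrsf9. The CD25- PP ranges were -0.14 to 0.23 for Lta, -0.26 to 0.051 for Ltb and -0.088 to 1.19 for Tnfrsf1b. The colonic ranges were -0.15 to 0.072 for Tnfsf8, -0.17 to 0.23 for Tnfrsf4, -0.064 to 0.37 for Tnfrsf18 and -0.24 to 0.11 for Tnfrsf9. The organ ranges were -0.034 to 0.16 for Ltb and -0.024 to 0.62 for Tnfrsf1b, and those of the interaction -0.47 to 0.080 for Tnfrsf18, -0.28 to 0.11 for Tnfsf11 and -0.82 to 0.17 for Tnf. The causes were not tested. Groups of 2 or 3 libraries limit each comparison more than depth does.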
